A study of Caenorhabditis elegans with 18 samples.

Results

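mir-75 and mir-79 are 2 miRNAs of the nematode Caenorhabditis elegans that share a seed, the bases near the 5′ end through which a miRNA pairs with its targets. They were taken by name from the 176 miRNA names listed in each of 18 small RNA libraries, and both were listed in every library. The libraries came from pellets of whole young adults kept at 25 °C, with 3 libraries for each of 6 genotypes. These were the double mutant of dpf-3(xe68) and alg-1(gk214), alg-1(gk214) alone, the double mutant of dpf-3(xe68) and alg-2(ok304), alg-2(ok304) alone, dpf-3(xe68) alone, and the wild type N2 (Bristol). They are called here by gene name alone, as in dpf-3;alg-1 for the first. Each pellet held many animals, the labels give no age in hours, and what each allele does to its gene is not stated there.

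MiRNAs work only when they are bound by an Argonaute protein, and a miRNA with no Argonaute to hold it is usually short-lived. The main miRNA Argonautes of C. elegans are the products of alg-1 and alg-2, and dpf-3 encodes a dipeptidyl peptidase, an enzyme that cuts pairs of residues from the start of proteins. miRNAs with the same seed can bind the same target sites, so the level of one alone does not give the supply of the seed. mir-79 is known to act in the epidermis of the worm, where it limits enzymes of proteoglycan synthesis and so affects the positions of neurons, and Drosophila has a miRNA of the same name.

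Totals ranged from 7.78 to 22.5 M expected counts per library (M, 1e6). mir-75 had 1282 to 5962 counts in a library and mir-79 had 1817 to 8722, so that the counting error of the lowest library was 2.79% for mir-75 and 2.35% for mir-79. The counts of mir-75 were whole numbers in 18 of 18 libraries, and those of mir-79 were fractional in 1, wild type replicate 2. Levels are given as CPM, counts per 1e6 after scaling by library total and a TMM factor. Among the 139 miRNAs that passed the filter on low counts, mir-75 ranked from 58 to 75 by mean CPM in the 6 genotypes and mir-79 from 55 to 69, so both were of middle abundance. In the WBcel235 annotation mir-75 lies on chromosome X and mir-79 on chromosome I, and neither lies within a protein-coding gene. mir-73 and mir-74 lie within 10 kb of mir-75, and no other miRNA gene lies within that distance of mir-79. Counts of miRNAs hold nothing on dpf-3, alg-1 or alg-2 themselves, so the genotypes rest on the labels.

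Both miRNAs were higher in alg-1 mutants. mir-75 had 406, 506 and 524 CPM in the alg-1 libraries, against 256, 169 and 210.4 CPM in the wild type libraries. The 3 alg-1 libraries all lay above the wild type libraries, without overlap. mir-75 was 2.26-fold higher in alg-1, a log2 change of 1.18 with a standard error (SE) of 0.16, and its adjusted p by edgeR's quasi-likelihood test was 2.57e-06. mir-79 had 576, 739.8 and 622 CPM in alg-1, against 398, 306 and 329.5 CPM in wild type. These groups were apart as well. Its level was 1.87-fold higher (log2 change 0.91, SE 0.14), with an edgeR adjusted p of 1.26e-05. In this comparison 84.2% of the 139 miRNAs tested were called in either direction at an adjusted p below 0.05 and 83.5% had libraries that did not overlap, so that being called does not set the pair apart. By size of rise mir-75 was the 30th and mir-79 the 43rd of 139. With upper quartile factors the log2 changes were 2.35 and 2.07, but those factors moved the median of all miRNAs from -0.08 to 1.07.

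Markers of several tissues differed between the same libraries. All 5 neuron markers (mir-124, lsy-6, mir-790, mir-791 and mir-793, the last also of the let-7 family) were higher in alg-1, with a summed level of 1941 to 3026 CPM in alg-1 and 1199 to 1276 CPM in wild type. The glia marker mir-228 lay between 18997 and 23392 CPM in alg-1 and between 5263 and 6088 CPM in wild type. Of the intestine markers mir-60 was higher and mir-243 did not pass, with a sum of 3405 to 3720 CPM in alg-1 and 2206 to 2653 CPM in wild type. For mir-1, the muscle marker, the log2 change was -0.02 and did not pass. Of the 8 members of the mir-35 family, made in oocytes and embryos, 7 were lower, with a summed level of 3389 to 3782 CPM in alg-1 and 115777 to 141543 CPM in wild type. No marker was at 0 in any genotype, and the part of these shifts in the levels of mir-75 and mir-79 was not tested. In whole animals fewer cells of a type and less of a miRNA per cell cannot be told apart.

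**Figure D1:**
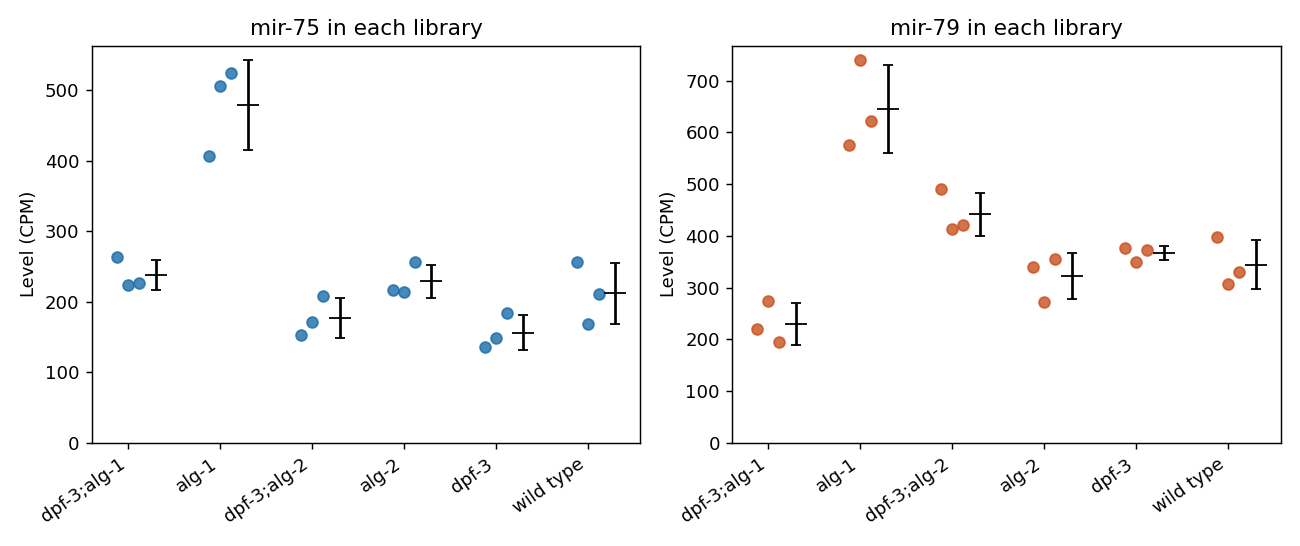
Level in CPM (vertical axis, linear, from 0) of mir-75 (left) and mir-79 (right) in the 6 genotypes, with a point for each of 3 libraries and a black mark with bar for the mean and SD. The alg-1 libraries are highest for both miRNAs, while dpf-3;alg-1 is lowest for mir-79, at a mean of 229 CPM, and dpf-3 is lowest for mir-75, at a mean of 156 CPM.

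Adding the dpf-3 mutation to alg-1 lowered both miRNAs, mir-79 to below its wild type level. mir-75 had 263, 224 and 227 CPM in dpf-3;alg-1, all below the alg-1 libraries given above. That is a log2 change of -1.01 (SE 0.16) with an edgeR adjusted p of 1.84e-05, to a level 2.01-fold lower. mir-79 had 219, 274 and 195 CPM in dpf-3;alg-1, also without overlap with alg-1. Its log2 change was -1.49 (SE 0.15) with an edgeR adjusted p of 3.42e-08, and its level was 2.82-fold lower. Among all miRNAs tested 76.3% were called in this comparison and 79.1% did not overlap, and the falls of mir-79 and mir-75 were the 17th and the 34th largest of 139. Of the neuron markers mir-124 and mir-791 were lower in the double mutant, and the summed neuron level was 1821 to 2329 CPM there and 1941 to 3026 CPM in alg-1. Both intestine markers were lower as well, and mir-228 was lower, at 6263 to 7333 CPM. In the mir-35 family 7 of 8 were higher and mir-42 was lower, with a sum of 44061 to 93569 CPM. The part of these shifts in the falls of mir-75 and mir-79 was not tested. With upper quartile factors the log2 changes were -2.14 for mir-75 and -2.61 for mir-79, while the median over all 139 was -1.27 in place of -0.14.

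Against wild type the 2 miRNAs then differed. mir-75 in dpf-3;alg-1 overlapped the wild type libraries, with a log2 change of 0.17 (SE 0.16, 95% interval -0.17 to 0.51) and an edgeR adjusted p of 0.39. mir-79 was lower in all 3 dpf-3;alg-1 libraries than in any wild type library, a fall to 229 ± 40.4 CPM in dpf-3;alg-1, against 345 ± 47.7 CPM in wild type (SD, n = 3 each). Its log2 change was -0.59 (SE 0.14), with an edgeR adjusted p of 0.0023, where 56.8% of the miRNAs were called and 64.7% did not overlap. Set beside dpf-3 alone, the pair moved in opposite directions when alg-1 was mutated too. mir-75 was at 238 ± 21.9 CPM in dpf-3;alg-1 and at 156 ± 25.1 CPM in dpf-3, and mir-79 was at 229 ± 40.4 and 367 ± 14.4 CPM in the same genotypes (SD, n = 3 each). Neither miRNA had overlapping libraries here. By the edgeR test mir-75 was higher in dpf-3;alg-1 (log2 change 0.61, SE 0.16, adjusted p 0.0034) and mir-79 was lower (log2 change -0.68, SE 0.14, adjusted p 0.00073), among 58.3% of miRNAs called and 62.6% not overlapping. The rise of mir-75 no longer passed with upper quartile factors. Markers moved in these comparisons too. In dpf-3;alg-1 minus wild type 4 of 5 neuron markers were called higher, with a sum of 1821 to 2329 CPM in the double mutant and 1199 to 1276 CPM in wild type, and all 8 mir-35 family members were lower, with a sum of 44061 to 93569 CPM in the double mutant and 115777 to 141543 CPM in wild type. In dpf-3;alg-1 minus dpf-3 4 of 5 neuron markers were again higher, against a sum of 1076 to 1480 CPM in dpf-3, and 7 of 8 mir-35 family members were higher, against 15518 to 28682 CPM. Of the 2 intestine markers 1 was lower in each, and mir-1 and mir-228 were not called in either. Their part in the changes of mir-75 and mir-79 was not tested.

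Mutation of dpf-3 alone had a small effect on mir-75 and none that passed on mir-79. mir-75 had 135, 148 and 184 CPM in dpf-3, against 256, 169 and 210.4 CPM in wild type. The highest dpf-3 library lay above the lowest wild type library, so the groups overlapped. The log2 change of -0.44 (SE 0.16) passed the edgeR test with an adjusted p of 0.043, in a comparison in which 33.8% of the miRNAs were called and 46% did not overlap. This call was lost in 9 of 17 alternatives, among them leaving out wild type replicate 1 (log2 change -0.28), wild type replicate 3 (-0.45), dpf-3 replicate 1 (-0.35) or dpf-3 replicate 2 (-0.39). mir-79 had 377, 350.3 and 373 CPM in dpf-3, within the range of the wild type libraries. Its log2 change was 0.09 (SE 0.14, 95% interval -0.21 to 0.39) and did not pass. All 8 mir-35 family members were lower in dpf-3, with a sum of 15518 to 28682 CPM in dpf-3 and 115777 to 141543 CPM in wild type. mir-228 was higher, at 6791 to 8622 CPM in dpf-3 and 5263 to 6088 CPM in wild type, and no neuron, intestine or muscle marker was called. The part of these shifts in the change of mir-75 was not tested.

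Neither miRNA was called in alg-2 animals. mir-75 had 217, 214 and 256 CPM in alg-2, which overlapped the wild type libraries, and its log2 change was 0.11 (95% interval -0.23 to 0.45). mir-79 had 339, 272 and 356 CPM in alg-2 and a log2 change of -0.10 (95% interval -0.40 to 0.20). In this comparison 45.3% of the miRNAs were called and 51.8% did not overlap. Upper quartile factors, which moved the median of all miRNAs from 0.06 to 0.87, made both miRNAs higher in alg-2, at 0.93 and 0.71. All 8 of the mir-35 family fell in alg-2, to a sum of 3982 to 4976 CPM, and mir-228, mir-1 and 1 of 5 neuron markers were higher. Only the 6 libraries with an alg-2 mutation were given a library name in their labels. Set and genotype cannot be told apart when these are compared with the other 12.

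Within the set of alg-2 mutants, mir-79 was higher when dpf-3 was mutated too, and mir-75 had a change that did not pass. mir-79 had 489.8, 414 and 421 CPM in dpf-3;alg-2, all above the alg-2 libraries, a log2 change of 0.45 (SE 0.14) with an edgeR adjusted p of 0.033. mir-75 had 153, 172 and 208 CPM in dpf-3;alg-2, all below the alg-2 libraries, but its log2 change of -0.37 (SE 0.16) had an adjusted p of 0.13 and did not pass. Of all miRNAs tested 18.7% were called here and 34.5% did not overlap. The call of mir-79 was lost without alg-2 replicate 1, alg-2 replicate 2, dpf-3;alg-2 replicate 1 or dpf-3;alg-2 replicate 3 (log2 changes 0.49, 0.35, 0.37 and 0.49), and also with RLE factors or with DESeq2. Of the markers the neuron marker mir-790 alone was called, and it was lower, with a summed neuron level of 759 to 1062 CPM in dpf-3;alg-2 and 1439 to 1739 CPM in alg-2. Its part was not tested. Against wild type mir-79 was higher in dpf-3;alg-2 by a log2 change of 0.36 (SE 0.14) at an adjusted p of 0.048, without overlap, where 47.5% of miRNAs were called and 56.8% did not overlap. Only 4 of 17 alternatives kept that call, and it was lost on leaving out each dpf-3;alg-2 library in turn and also wild type replicate 2 or wild type replicate 3 (log2 changes 0.28 to 0.40). mir-75 was at 177 ± 28.1 CPM in dpf-3;alg-2 and at 212 ± 43.6 CPM in wild type (SD, n = 3 each), a log2 change of -0.26 that did not pass and turned to 0.60 with upper quartile factors. In that comparison all 8 of the mir-35 family fell, to a sum of 4427 to 4856 CPM in the double mutant, against 115777 to 141543 CPM in wild type. Of 5 neuron markers 1 was lower there, mir-228 and mir-1 were higher, and no intestine marker was called. The part of these markers was not tested. Between dpf-3;alg-2 and dpf-3 neither passed, at 0.19 for mir-75 and 0.27 for mir-79, where 29.5% of miRNAs were called. The libraries of mir-79 did not overlap there, nor did those of 45.3% of all miRNAs.

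The Argonaute mutants differed from each other in both miRNAs. In alg-1 compared with alg-2 the log2 change was 1.06 (SE 0.16) for mir-75 and 1.002 (SE 0.14) for mir-79, with edgeR adjusted p-values of 9.05e-06 and 4.52e-06. The groups did not overlap for either, as for 84.2% of the miRNAs, and 82.7% were called. In the double mutants the signs parted. mir-75 was higher in dpf-3;alg-1 when set beside dpf-3;alg-2 (log2 change 0.42, SE 0.16, adjusted p 0.0300), and mir-79 was lower (log2 change -0.94, SE 0.14, adjusted p 2.36e-05), among 63.3% of miRNAs called and 68.3% not overlapping. The rise of mir-75 turned to -0.39 with upper quartile factors and was not called without dpf-3;alg-1 replicate 1 (0.35), dpf-3;alg-2 replicate 1 (0.33) or dpf-3;alg-2 replicate 2 (0.40). Both comparisons cross the library sets. In alg-1 minus alg-2 all 5 neuron markers were higher, with a sum of 1941 to 3026 CPM in alg-1 and 1439 to 1739 CPM in alg-2. mir-228 was higher as well, at 18997 to 23392 CPM in alg-1 and 5954 to 8357 CPM in alg-2, mir-1 was lower, 1 intestine marker was higher and 1 lower, and 1 mir-35 family member was higher and 2 were lower. In dpf-3;alg-1 minus dpf-3;alg-2 all 5 neuron markers were higher, with a sum of 1821 to 2329 CPM in the alg-1 double mutant and 759 to 1062 CPM in the alg-2 double mutant, and 1 intestine marker was lower. There 7 of 8 mir-35 family members were higher, with a sum of 44061 to 93569 CPM in the alg-1 double mutant and 4427 to 4856 CPM in the alg-2 double mutant. The part of these markers in the changes of mir-75 and mir-79 was not tested.

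**Figure D2:**
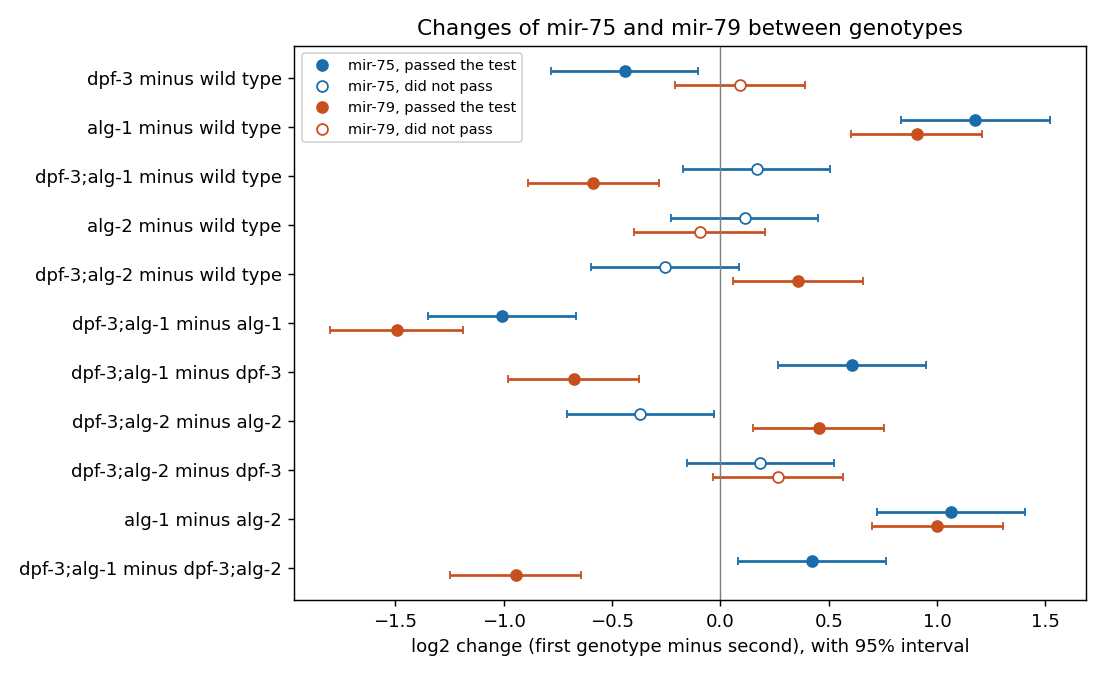
log2 change (horizontal axis) of mir-75 (blue) and mir-79 (orange) in 11 comparisons of 2 genotypes, the first named minus the second, with 95% intervals. Filled points passed edgeR's test at an adjusted p below 0.05 and open points did not. Both lie to the right in alg-1 minus wild type (1.18 and 0.91) and to the left in dpf-3;alg-1 minus alg-1 (-1.01 and -1.49), and they lie on opposite sides in dpf-3;alg-1 minus dpf-3 (0.61 and -0.68).

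The effect of the dpf-3 mutation on both miRNAs in alg-1 animals differed from that in wild type and in alg-2 animals. The effect on mir-79 in alg-1 animals minus that in wild type animals was -1.58 on the log2 scale (SE 0.20), with an edgeR adjusted p of 1.91e-06. Set against the effect in alg-2 animals the difference was -1.95 (SE 0.20, adjusted p 2.31e-07). These tests called 69.1% and 66.2% of all miRNAs, and the median differences over all miRNAs were -0.23 and -0.17. Counted from the lowest difference, mir-79 was the 15th and 11th of 139, and mir-75 the 51st and 52nd. Both differences for mir-79 passed in all 23 alternatives run on each. For mir-75 they were smaller, at -0.57 (SE 0.23, adjusted p 0.034) and -0.64 (SE 0.23, adjusted p 0.019). The first of these was lost in 12 of 23 alternatives, with log2 differences of -0.43 without wild type replicate 2, -0.56 without wild type replicate 3, -0.37 without dpf-3 replicate 2, -0.43 without dpf-3 replicate 3, -0.53 without alg-1 replicate 2, -0.50 without alg-1 replicate 3, -0.53 without dpf-3;alg-1 replicate 2 and -0.54 without dpf-3;alg-1 replicate 3. For the second, leaving out replicate 3 of dpf-3;alg-2 ended the call (-0.51). The test between the effects in alg-2 and in wild type animals did not pass, with 0.07 (95% interval -0.41 to 0.55) for mir-75 and 0.36 (95% interval -0.06 to 0.79) for mir-79, where 28.1% of miRNAs were called.

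By mean level, mir-75 was highest in alg-1 and next in dpf-3;alg-1, followed by alg-2, wild type, dpf-3;alg-2 and dpf-3, with a 3.07-fold range. The libraries of alg-1 lay apart from those of dpf-3;alg-1, and every later pair of neighbours overlapped. For mir-79 the order was alg-1, dpf-3;alg-2, dpf-3, wild type, alg-2 and dpf-3;alg-1, with a 2.82-fold range. There alg-1 lay apart from dpf-3;alg-2 and dpf-3;alg-2 from dpf-3, and the other neighbours overlapped. The libraries of a genotype varied with a coefficient of variation of 9.19% to 20.6% for mir-75 and 3.94% to 17.6% for mir-79. The widest spread of mir-75 was that of wild type, so comparisons with wild type rest on its least even group.

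Because both miRNAs were counted in the same library, their ratio does not depend on the scaling between libraries. Adapter ligation can favour one miRNA over another, so the ratio itself is not a ratio of molecules, but its shift between genotypes can be compared. mir-75 made up 54.5%, 44.97% and 53.8% of the summed counts of both in dpf-3;alg-1. The share was 41.4%, 40.6% and 45.8% in alg-1, and 23.7%, 29.3% and 33.1% in dpf-3;alg-2. It was 39.0%, 44.0% and 41.8% in alg-2, 26.4%, 29.8% and 33.0% in dpf-3, and 39.1%, 35.6% and 39.0% in wild type. mir-75 thus outnumbered mir-79 only in 2 libraries of dpf-3;alg-1. The 2 genotypes with the lowest share both carry the dpf-3 mutation with alg-1 intact. The mean log2 ratio of mir-75 to mir-79 differed by -0.53 in dpf-3 minus wild type and by -0.84 in dpf-3;alg-2 minus alg-2, without overlap in either case. In dpf-3;alg-1 it was higher than in alg-1 by 0.50, where the libraries overlapped, higher than in wild type by 0.78 and higher than in dpf-3 by 1.31, both without overlap. It was higher by 0.28 in alg-1 than in wild type, without overlap. The two-sided exact permutation p was 0.1 in each comparison without overlap, the smallest that 3 libraries against 3 allow, and 0.16 after adjustment over 11 comparisons. It was 0.2 for dpf-3;alg-1 against alg-1. This test therefore could not reach 0.05 for any shift.

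**Figure D3:**
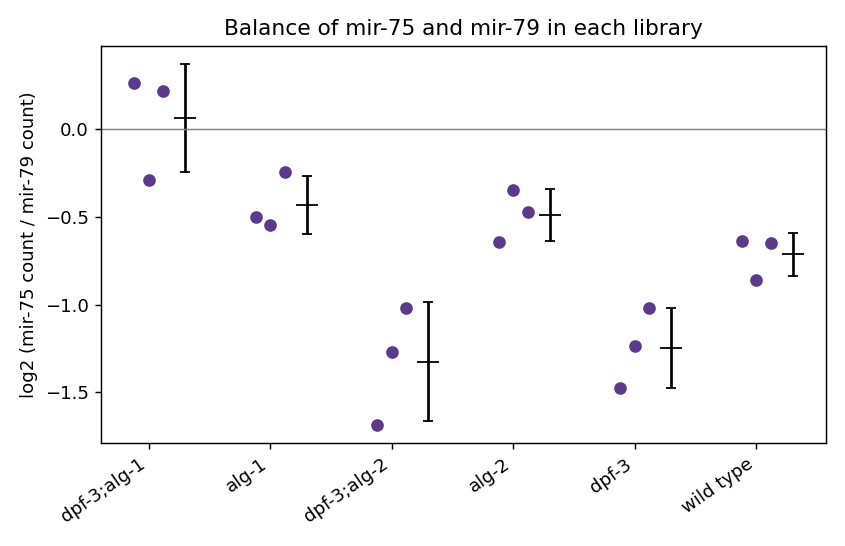
log2 ratio of mir-75 to mir-79 counts (vertical axis) in each of 3 libraries of 6 genotypes (points), with mean and SD (black mark and bar). dpf-3;alg-1 has the highest mean, 0.06, alg-1, alg-2 and wild type lie between, and dpf-3;alg-2 and dpf-3 are lowest, at -1.32 and -1.25.

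Summed, the 2 miRNAs stood at 467 ± 40.2 CPM in dpf-3;alg-1, 1125 ± 133 CPM in alg-1, 619 ± 29.5 CPM in dpf-3;alg-2, 551 ± 63.7 CPM in alg-2, 523 ± 30.6 CPM in dpf-3 and 556 ± 90.6 CPM in wild type (SD, n = 3 each). The sums of the alg-1 libraries lay above those of every other genotype. In dpf-3 set beside wild type, and in dpf-3;alg-2 set beside alg-2, the sums overlapped. In each of these comparisons only 1 of the 2 miRNAs had a change that passed. As a share of all counts the pair held 0.105% ± 0.0164 in alg-1 and 0.0552% ± 0.0103 in wild type (SD, n = 3 each). No test was made of the sum.

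Other families of 2 miRNAs, listed as sharing a seed, were set beside the pair as a scale for how alike such pairs move. No miRNA sequences were at hand, so whether both members of a family have the same seed was not checked. The families are lin-4 and mir-237 of developmental timing, mir-46 and mir-47, mir-49 and mir-83, mir-251 and mir-252, and mir-232 and mir-357. In alg-1 minus wild type the log2 changes of mir-75 and mir-79 differed by 0.27, and in the other 5 families the difference ran from 0.16 for mir-46 and mir-47 to 3.22 for mir-251 and mir-252, with a median of 1.89. In dpf-3;alg-1 minus alg-1 the difference was 0.48, against 0.16 to 2.94 in the others. In dpf-3;alg-2 minus alg-2 the order turned, and mir-75 and mir-79 differed by 0.82 where no other family exceeded 0.46. They were also farther apart than any other family in dpf-3;alg-1 minus dpf-3;alg-2, by 1.37 against at most 1.08. They were closer than any other in alg-1 minus alg-2 (0.06, others 0.38 to 2.84) and dpf-3;alg-2 minus dpf-3 (0.08, others 0.16 to 0.41). In comparisons not named in this paragraph their difference lay within the range of the others. In dpf-3 minus wild type the difference was 0.53, and only mir-232 and mir-357 differed more, by 0.91, while mir-49 and mir-83 differed by 0.53 as well. These differences are descriptions, and none was tested between families.

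**Figure D4:**
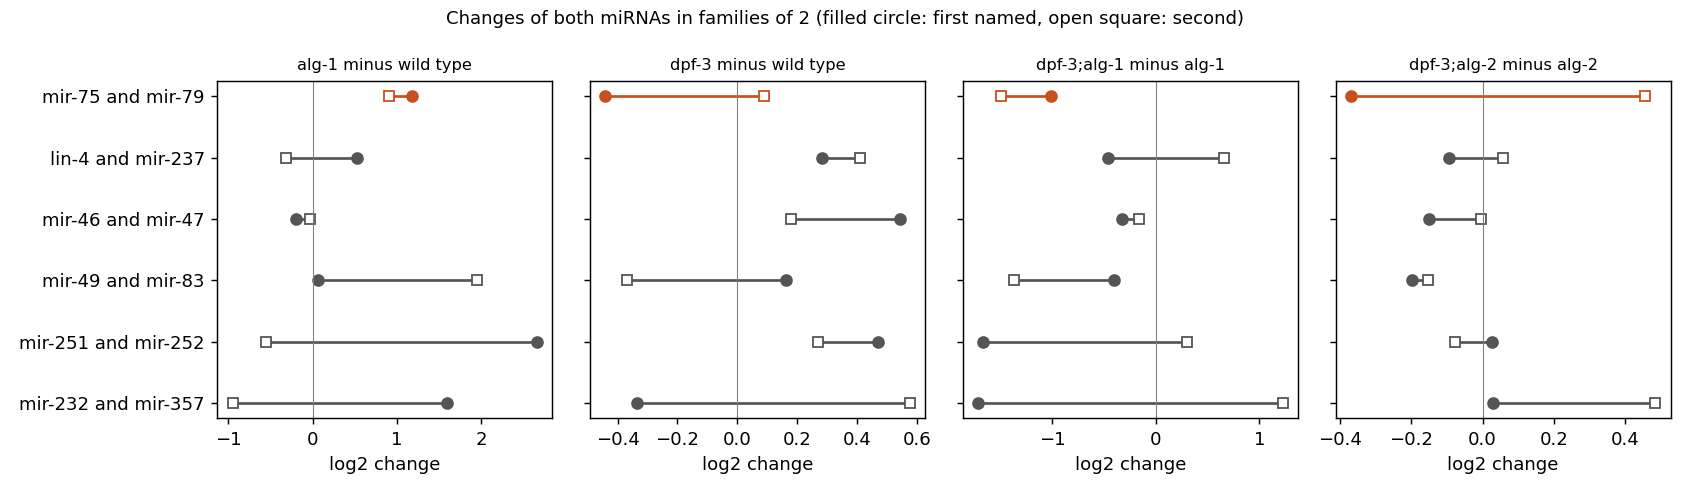
log2 change (horizontal axes, each panel with its own scale) of both members of 6 families of 2 miRNAs in 4 comparisons, with a filled circle for the first named miRNA and an open square for the second. mir-75 and mir-79 (orange, top) lie close together in alg-1 minus wild type, 0.27 apart, and farthest apart of all 6 families in dpf-3;alg-2 minus alg-2, at 0.82.

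Over the 6 genotype means, the profiles of mir-75 and mir-79 were not each other's nearest. Their log2 levels had a Pearson correlation of 0.52 over 6 genotypes and 0.50 over 18 libraries, and mir-79 came 46th in likeness to mir-75 among the 114 miRNAs that averaged 10 CPM or more. The profiles most like that of mir-75 were those of mir-52 (0.98), mir-83 (0.98), mir-72 (0.96), mir-53 (0.95) and the intestine marker mir-60 (0.94). The other intestine marker, mir-243, is not among these and did not peak in alg-1. It was at 298 ± 48.7 CPM in alg-1 and 372 ± 20.8 CPM in wild type (SD, n = 3 each). mir-52 and mir-53 belong to the mir-51 family. Choice by profile favours changes in the same direction as those of mir-75, without fixing it in every comparison. The changes differed in size, with log2 changes of 0.65 for mir-60 and 1.95 for mir-83 in alg-1 minus wild type. The profiles most like that of mir-79 were those of mir-227 (0.97), mir-2 (0.95), mir-244 (0.93), mir-44/45 (0.92) and mir-57 (0.88). Neither list shares a name with the other. These correlations are over few points that share libraries and scaling, and they were used only to rank profiles.

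**Figure D5:**
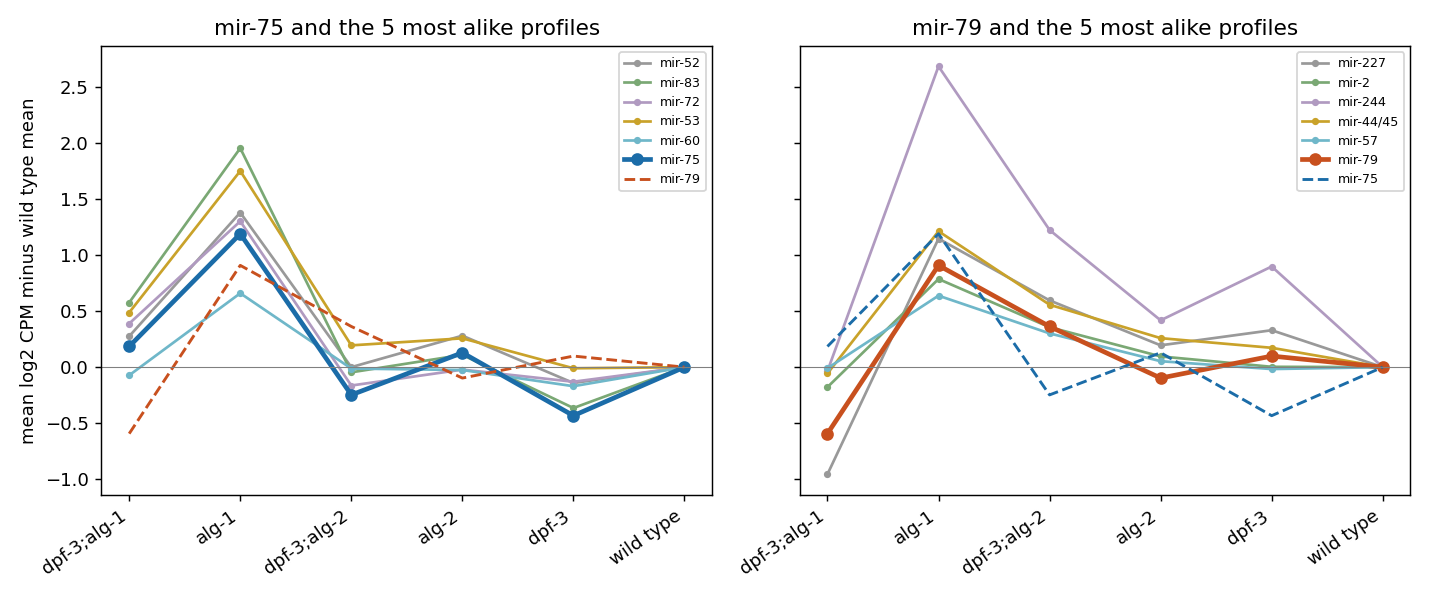
Mean log2 CPM minus the wild type mean (vertical axis) over the 6 genotypes for mir-75 (left, blue) and mir-79 (right, orange) with the 5 miRNAs whose profiles correlate best with each, and the other of the pair as a dashed line. All lines peak in alg-1, and the lines of mir-75 and mir-79 part in dpf-3;alg-1, dpf-3;alg-2 and dpf-3.

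mir-244 carries the seed known from miR-9, and the mir-9 and mir-79 hairpins of flies are related. It rose in alg-1 to 435 ± 44.7 CPM, against 67.7 ± 5.24 CPM in wild type (SD, n = 3 each), a larger change than that of either miRNA of the pair (log2 change 2.68, SE 0.19, edgeR adjusted p 4.61e-10), and it was back at 66.3 ± 8.32 CPM in dpf-3;alg-1. In dpf-3 it was higher than in wild type by 0.91 (SE 0.18), where mir-79 did not pass.

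The annotated neighbours of mir-75, which were added after the values were seen, did not move as 1 block with it. mir-74 was at 321 ± 14.4 CPM in alg-1 and 189.9 ± 23.1 CPM in wild type (SD, n = 3 each), a log2 change of 0.76 (SE 0.12), and in dpf-3;alg-1 minus alg-1 its log2 change was -0.97 (SE 0.12, called lower). With dpf-3 mutated alone mir-74 was lower as well (minus wild type, log2 change -0.46, SE 0.12, edgeR adjusted p 0.0065), the direction of mir-75 there. mir-73 had a log2 change of -0.05 (SE 0.09) in alg-1 minus wild type and did not pass, and in dpf-3;alg-1 minus alg-1 its log2 change was -0.25 (SE 0.09, called lower).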

How the data were processed

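Small RNA was sequenced from 18 libraries of 6 genotypes. Per the labels' protocols, Trizol RNA went into NEBNext libraries, from which a gel slice near 140 bp was kept. Bowtie 0.12.7 is named in the submitters' processing notes. The genome build, the miRNA annotation and how reads were shared out were not given in the sources used here. The authors deposited expected counts for 176 miRNA names per library, without normalization. Column 5, the sum of columns 3 and 4 whose meaning is not stated, was used and rounded to whole numbers. The values of mir-44 and mir-45 were identical, and these 2 names were summed. Names were matched to the WBcel235 annotation (164 of 176) for chromosomes and neighbours only.

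Counts were tested with edgeR 4.0.16 (quasi-likelihood, robust, TMM factors of 0.876 to 1.10, low-count filter of 10 counts in the smallest group and 15 in total) in R 4.3.3. All 18 libraries entered 1 fit with genotype as the term. p-values were adjusted by Benjamini-Hochberg over 139 miRNAs in each of 11 comparisons and 3 differences of effects. The fit was tested on simulated data in which most miRNAs were unchanged. That setting does not cover comparisons such as alg-1 minus wild type, where 84.2% were called. Ratios were compared by an exact permutation test with a pseudocount of 0.5. Alternatives were RLE, upper quartile or no factors, the mir-35 family removed, 2 other filters, DESeq2 1.42.0, limma-voom (limma 3.58.1), the comparison's genotypes alone, column 3 alone, a replicate block, and each library left out. The miRNAs named are mir-75 and mir-79, the 5 profiles most like each, mir-244, the other families of 2 and the markers. The neighbours mir-73 and mir-74 were added after the values were seen. The members and lists were chosen with earlier results of these data known. Same-numbered libraries deviated together, each pair with a correlation over 0.1, in 3 of 11 comparisons (dpf-3;alg-1 with alg-1, alg-1 with alg-2, dpf-3;alg-2 with dpf-3), where a paired fit was added after seeing the data; over all genotypes the share over 0.1 was 19 of 45 same-numbered and 34 of 90 other pairs. No 2 replicates agreed within sampling noise. Whether replicates came from separate cultures is not stated, so the p-values rest on a spread between libraries that may be technical. PCR reads are not independent molecules, so counting errors cover counting only.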

Additional observations from a re-analysis of the deposited data

Results flagged for a closer look

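Both miRNAs were flagged by a test of the difference between effects of the dpf-3 mutation. The effect in alg-1 animals differed from that in wild type and in alg-2 animals. Against the effect in wild type 69.1% of the 139 miRNAs were called, and against that in alg-2 animals 66.2%. Being called therefore does not set the pair apart. For mir-79 the effect in alg-1 minus that in wild type was -1.58 on the log2 scale (edgeR adjusted p 1.91e-06), and the effect in alg-1 minus that in alg-2 was -1.95 (adjusted p 2.31e-07). mir-79 was lower in 3 of 3 libraries of dpf-3;alg-1 than in any library of alg-1, and higher in 3 of 3 libraries of dpf-3;alg-2 than in any of alg-2. Such separation, in either direction, held for 79.1% of the 139 miRNAs in the first case and for 34.5% in the second. For mir-75 the same differences were -0.57 (adjusted p 0.034) and -0.64 (adjusted p 0.019). mir-75 was lower in 3 of 3 libraries of dpf-3;alg-1 than in any of alg-1. Its change in dpf-3;alg-2 minus alg-2 did not pass (log2 change -0.37, adjusted p 0.13). The difference of -0.57 lost its call in 12 of 23 alternatives and that of -0.64 in 4 of 23, while those of mir-79 kept theirs in 23 of 23.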

How the results depend on the processing

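The rise of both miRNAs in alg-1 over wild type and over alg-2, their fall in dpf-3;alg-1 relative to alg-1, and the lower mir-79 in dpf-3;alg-1 relative to wild type, dpf-3 and dpf-3;alg-2 kept direction and call in all alternatives run, 17 or 18 for each. In all, 789 of 865 alternative values kept direction and call, or for the ratio kept direction alone, or for counts stayed within 1.5 times. The cause of the changes below was not tested. Upper quartile factors gave, for mir-75, -0.14 in dpf-3 minus wild type, 0.93 in alg-2 minus wild type, 0.60 in dpf-3;alg-2 minus wild type, 0.35 in dpf-3;alg-1 minus dpf-3, 0.74 in dpf-3;alg-2 minus dpf-3, -0.39 between the double mutants and -0.18 for the dpf-3 effect in alg-2 minus in wild type. For mir-79 they gave 0.39 in dpf-3, 0.71 in alg-2 (each minus wild type) and 0.83 in dpf-3;alg-2 minus dpf-3. They called 111, 118 and 105 miRNAs in alg-2 minus wild type, dpf-3;alg-2 minus wild type and dpf-3;alg-2 minus dpf-3, against 63, 66 and 41. The mir-75 change in dpf-3 lost its call with no composition factors (-0.35), without the mir-35 family (-0.43), without a low-count filter (-0.43) and with the 2 genotypes alone (-0.46). For mir-79 the change in dpf-3;alg-2 minus wild type lost its call with RLE factors (0.26), no factors (0.35), no mir-35 family (0.28), no filter (0.35), the 10 CPM filter (0.26), DESeq2 (0.26), the genotypes alone (0.27) and a replicate block (0.36). The replicate block changed no other call of mir-75 or mir-79. Where each same-numbered pair had a correlation over 0.1, a replicate block on the 2 genotypes alone was added after seeing the data. It changed no call of either miRNA in these 3 comparisons. It gave -0.85 for mir-75 and -1.34 for mir-79 in dpf-3;alg-1 minus alg-1, 0.93 and 0.88 in alg-1 minus alg-2, and 0.16 and 0.24 in dpf-3;alg-2 minus dpf-3. In the other 8 comparisons not every same-numbered pair had a correlation over 0.1. In dpf-3;alg-2 minus alg-2 mir-79 lost its call with RLE factors (0.39), no factors (0.45) and DESeq2 (0.39), and the 10 CPM filter called 17 miRNAs there, against 26. For mir-75 the dpf-3 effect in alg-1 minus in wild type lost its call with no factors (-0.50), no mir-35 family (-0.38), the 10 CPM filter (-0.38) and column 3 alone (-0.52), that in alg-1 minus in alg-2 with no factors (-0.47), no mir-35 family (-0.41) and the 10 CPM filter (-0.50), and that in alg-2 minus in wild type was -0.029 with no factors.

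With each library left out in turn, mir-75 ranged from -0.58 to -0.28 in dpf-3 minus wild type, -0.026 to 0.27 in alg-2 minus wild type, 0.33 to 0.55 between the double mutants, -0.73 to -0.37 for the dpf-3 effect in alg-1 minus in wild type, -0.75 to -0.51 for that in alg-1 minus in alg-2, and -0.087 to 0.21 for that in alg-2 minus in wild type. mir-79 ranged from -0.17 to 0.020 in alg-2 minus wild type, 0.28 to 0.47 in dpf-3;alg-2 minus wild type and 0.35 to 0.53 in dpf-3;alg-2 minus alg-2. The calls ranged from 23 to 38 in dpf-3;alg-2 minus dpf-3 (23 without dpf-3 replicate 2) and from 18 to 45 for the dpf-3 effect in alg-2 minus in wild type (18 without wild type replicate 1, 22 without alg-2 replicate 1). The difference in log2 ratio ranged from -0.23 to 0.10 in dpf-3;alg-2 minus dpf-3 and from -0.038 to 0.13 in alg-1 minus alg-2. Counting error was at most 2.79% in any library for either miRNA, below the spread between libraries.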

Other observations

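The 9 larger seed families (let-7, mir-35, mir-51, mir-58, mir-64, mir-44, mir-2, mir-72 and mir-87) held 44 tested members. In dpf-3;alg-2 minus alg-2 none of the 44 was called higher by edgeR's test and 2 were called lower, beside 18 higher and 8 lower of all 139, mir-79 being among the 18. In all, 18.7% of the 139 were called there, and the call of mir-79 was kept in only 10 of 17 alternatives. Members of these families were called more often elsewhere. Of the 44, 18 were higher and 21 lower in alg-1 minus wild type, beside 59 higher and 58 lower of all 139. For dpf-3;alg-1 minus alg-1 the counts were 20 higher and 16 lower, beside 48 and 58. The column of the deposited files that holds almost no counts, column 4, had a single count for mir-79 in each of 2 libraries, beside 7313 and 6862 counts in column 3, and none for mir-75 in 18 libraries.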
